A study of Mus musculus with 2 samples.

Results

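Malat1, Neat1 and 4 genes of paraspeckle proteins (Sfpq, Nono, Pspc1 and Rbm14) were described in granulocyte-monocyte progenitors, precursors of neutrophils and monocytes in bone marrow. The 6 genes were chosen by symbol, matched through GENCODE M21, and all 6 had a row among the 69691 rows of the gene tables. Total RNA was sequenced from pools of 100 primary progenitors of male C57BL/6J mice aged 5 to 6 weeks, with spike-in RNAs added. There was 1 group of 2 libraries, called replicate 1 and replicate 2 after the labels, with 40509954 and 35675702 expected counts (estimated reads per gene, which need not be whole). The labels name no genotype change, transgene or treatment, and all libraries are of the same condition, so no conditions were compared. The labels give the libraries separate sample identifiers and 1 donor identifier, so every SD below measures the spread between 2 libraries that may be technical.

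Malat1 and Neat1 are long non-coding RNAs that stay in the nucleus and are transcribed from neighbouring genes. Malat1 collects in nuclear speckles, where splicing factors are stored. Neat1 is the scaffold of paraspeckles, bodies that hold RNA-binding proteins and some edited RNAs in the nucleus. It is made in a short, polyadenylated form and a long form that share their 5′ end, and the long form is the one that builds the body. SFPQ, NONO and PSPC1 form the DBHS family, whose members pair with each other and coat Neat1. RBM14 has a prion-like domain and is needed to assemble the body.

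The 3′ ends of these RNAs set their forms apart, and they are shown as background to the results on transcript use. The long form of Neat1 and Malat1 are not finished by ordinary polyadenylation. RNase P cuts them after an A-rich tract that folds into a triple helix, and a small tRNA-like RNA is released. In the lines below, sequences run 5′ to 3′ from the GENCODE M21 transcripts on GRCm38, minus strand. Capitals mark AAAAGCAAAA, the last 10 annotated bases of the long form of Neat1, in the first pair and the polyadenylation signal AATAAA in the second pair.
Malat1, A-rich tract (chr19:5795982-5796081): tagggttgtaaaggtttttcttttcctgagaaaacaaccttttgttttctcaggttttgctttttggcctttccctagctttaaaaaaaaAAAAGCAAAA
Neat1 long form, 3′ end (chr19:5824708-5824807): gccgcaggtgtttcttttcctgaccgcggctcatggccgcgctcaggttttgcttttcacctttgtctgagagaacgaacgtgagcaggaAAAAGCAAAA
Neat1 short form, 3′ end (chr19:5842307-5842406): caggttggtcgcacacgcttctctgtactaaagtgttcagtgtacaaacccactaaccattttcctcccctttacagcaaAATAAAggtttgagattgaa
Malat1, annotated 3′ end (chr19:5795690-5795789): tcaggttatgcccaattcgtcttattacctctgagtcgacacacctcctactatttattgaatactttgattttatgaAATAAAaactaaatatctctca

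The letters AAAAGCAAAA were taken from the end of the long form of Neat1, so they close it at base 20771 by construction. In Malat1 the same letters stood at bases 6682 to 6691 of 6983, which left 292 annotated bases after them. Searched on the transcript strand alone, AAAAGCAAAA was present in the last 100 bases of 0.111% of 139316 M21 transcripts and anywhere in 1.14%. The windows of Malat1 and Neat1 shared 3 runs of 10 bases or more, TTTCTTTTCCTGA, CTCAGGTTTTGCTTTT and AAAAAGCAAAA. Both windows were set to end on AAAAGCAAAA, so the last of these runs was fixed in advance. No background was computed for the other runs. AATAAA stood 14 bases before the end of the short form of Neat1 and 16 bases before the annotated end of Malat1, and was in the last 100 bases of 28.9% of M21 transcripts. These are matches of letters and were not tested as sites.

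The libraries carried the profile named by the labels. TPM, the unit used below, is a level divided by transcript length and scaled to a fixed total per library. Each of the 10 progenitor markers, Mpo, Elane and Kit among them, reached 10 TPM in each library. Of the 3 B cell markers Ebf1 and Pax5 had 0 counts throughout, as did all 3 T cell markers and the stromal markers Col1a1 and Cxcl12. The 4 mature neutrophil markers summed to 73.9 TPM in replicate 1 and 5.12 TPM in replicate 2, with Ngp at 44.7 and 0.880 TPM. Ltf and Camp were likewise lower in replicate 2, whereas Mmp8 was higher there, with 2.24 TPM against 1.07 in replicate 1. The 4 erythroid markers summed to 0.350 and 2.09 TPM, and the 4 stem cell markers to 1.60 and 1.35 TPM. The 3 macrophage markers summed to 6.06 and 6.80 TPM. The part of these cells in the levels below was not tested. In pooled cells, fewer cells expressing a gene and less RNA per cell cannot be told apart.

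All 6 genes were expressed, in the order Malat1, Sfpq, Nono, Neat1, Rbm14, Pspc1 by mean TPM. Each reached 10 TPM in each library, a level reached by 26.1% of 21474 protein-coding genes and by 0.966% of 5694 long non-coding RNA genes.

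Malat1 (ENSMUSG00000092341, chromosome 19, 5795690 to 5802672, minus strand) stood at 1156 and 1228 TPM in replicates 1 and 2, a mean of 1192 ± 50.6 TPM (SD, n = 2). This mean had rank 3 among the long non-coding RNA genes, and 99.6% of protein-coding genes lay below it. No ribosomal RNA-related row was removed before ranking, and the highest long non-coding RNA gene averaged 249635 TPM. Malat1 held 62441 expected counts in replicate 1, or 0.154% of the library (95% Wilson interval 0.153 to 0.155), and 50066 in replicate 2, or 0.140% (0.139 to 0.142). The intervals cover counting error only, and between the libraries they did not overlap. By counts Malat1 was lower in replicate 2, while by TPM it was slightly higher there. Its effective length, which divides the counts and is averaged over its transcripts, was 1838 bases in replicate 1 and 1556 in replicate 2.

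Neat1 (ENSMUSG00000092274, chromosome 19, 5824708 to 5845478, minus strand) stood at 32.4 TPM in each library (SD 0.0141). It held 8261 counts in replicate 1, 0.0204% of the library (95% Wilson interval 0.0200 to 0.0208), and 7317 in replicate 2, 0.0205% (0.0200 to 0.0210). These shares did not differ beyond counting error. Neat1 was at rank 25 in the same ranking of long non-coding RNA genes. Malat1 exceeded it 35.7-fold by TPM in replicate 1 and 37.9-fold in replicate 2, and 7.56-fold and 6.84-fold by counts.

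Sfpq (ENSMUSG00000028820, chromosome 4, 127021324 to 127037013, plus strand), which encodes the splicing factor rich in proline and glutamine, was the highest of the 4 protein genes. Its levels were 184 TPM in replicate 1 and 232 in replicate 2 (208 ± 33.5). These rest on 11557 and 11515 counts. Nono (ENSMUSG00000031311, chromosome X, 101429318 to 101448591, plus strand), its usual DBHS partner, was at 128 and 115 TPM (122 ± 9.50), from 7768 and 6619 counts. Values of Sfpq and Nono did not overlap, and Sfpq was 1.44-fold and 2.02-fold above Nono in the respective libraries. They lay above 98.7% and 97.7% of protein-coding genes.

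Pspc1 (ENSMUSG00000021938, chromosome 14, 56720710 to 56778316, minus strand), the third DBHS gene, was lower, with 23.5 TPM in replicate 1 and 25.3 in replicate 2 (24.4 ± 1.24). It had 1358 and 1380 counts. Nono exceeded it 5.45-fold and 4.54-fold, and Sfpq 7.83-fold and 9.17-fold. Rbm14 (ENSMUSG00000006456, chromosome 19, 4800569 to 4811634, minus strand) was at 24.4 and 28.5 TPM (26.4 ± 2.91), from 2250 and 2339 counts. By TPM the libraries' values of Rbm14 and Pspc1 overlapped, so on this scale these neighbours in the order did not differ beyond their spread, although Rbm14 was the higher within each library (1.04-fold and 1.13-fold). Neat1, at 32.4 TPM, lay above both values of each.

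**Figure D1:**
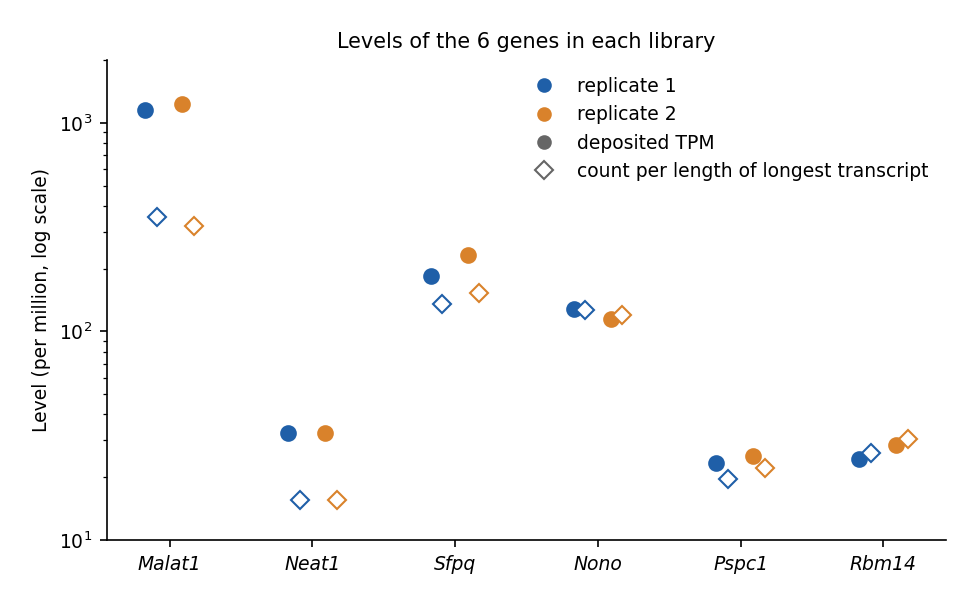
Level of each gene in replicate 1 (blue) and replicate 2 (orange) on a log axis, as deposited TPM (filled circles) and as counts per effective length of the gene's longest transcript, scaled to the same total (open diamonds). Malat1 drops from 1192 to 337 and Neat1 from 32.4 to 15.5 between the scales, while Nono stays at 122 and 123.

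The place of Neat1 in this order depended on the length used. With counts divided by each gene's deposited length the order was that of TPM, with Neat1 at 38.3, Rbm14 at 30.3 and Pspc1 at 27.3. When each gene's counts were divided by the effective length of its longest transcript, an alternative chosen after seeing the data, Malat1 stood at 355 in replicate 1 and 320 in replicate 2 (337 ± 25.3 on the TPM scale). That is 3.53-fold below its mean TPM, its rank against protein-coding genes going from 78 to 155, and it was again the highest of the 6. Neat1 stood at 15.6 and 15.5 (15.5 ± 0.0669), 2.09-fold below its mean TPM, and moved from above Rbm14 and Pspc1 to below them, with Rbm14 at 28.2 ± 3.05 and Pspc1 at 20.9 ± 1.92. Here Rbm14, at 26.1 and 30.4, no longer overlapped Pspc1, at 19.5 and 22.2. Sfpq was at 144 ± 11.3 and Nono at 123 ± 3.99 on this scale. TPM of a gene is the sum over its transcripts, so counts given to short transcripts weigh more in it.

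Most reads of Malat1 were given to its full-length RNA, yet most of its TPM was not. The unspliced transcript ENSMUST00000172812, 6983 bases, took 51581 of the gene's counts in replicate 1 and 38729 in replicate 2, or 82.6% and 77.4%. It held 22.3% and 17.6% of the TPM, 257 and 216 TPM. The other named transcripts were short and, where M21 holds them, spliced. ENSMUST00000173523, 656 bases, led by TPM with 33.9% and 40.5% on 9.14% and 13.0% of the counts. It is not in M21 and its position is not given here. ENSMUST00000173499, 485 bases in 2 exons at the 5′ end (bases 2 to 757 of the gene), held 33.1% and 26.9% of the TPM on 5.85% and 5.67% of the counts. ENSMUST00000173314, 556 bases in 2 exons near the 3′ end (bases 5209 to 6982), held 9.16% and 12.7% of the TPM.

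The 2 exons of ENSMUST00000173314, like those of the minor ENSMUST00000174808, skip the A-rich tract printed above, and resume at base 6888, near the annotated 3′ end. Every base of their exons also lies in the full-length transcript, so outside their splice junctions the estimate divides reads between them. Per kilobase of effective length, replicate 1 gave 11510 counts to ENSMUST00000173523, 11234 to ENSMUST00000173499 and 7560 to the full-length RNA. In replicate 2 these densities were 13046, 8649 and 5674. The other short transcripts lay below the full-length RNA, ENSMUST00000173314 at 3111 and 4086 and ENSMUST00000174808 at 553 and 724. Whether the short transcripts exist as RNAs of their own in these cells was not tested.

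**Figure D2:**
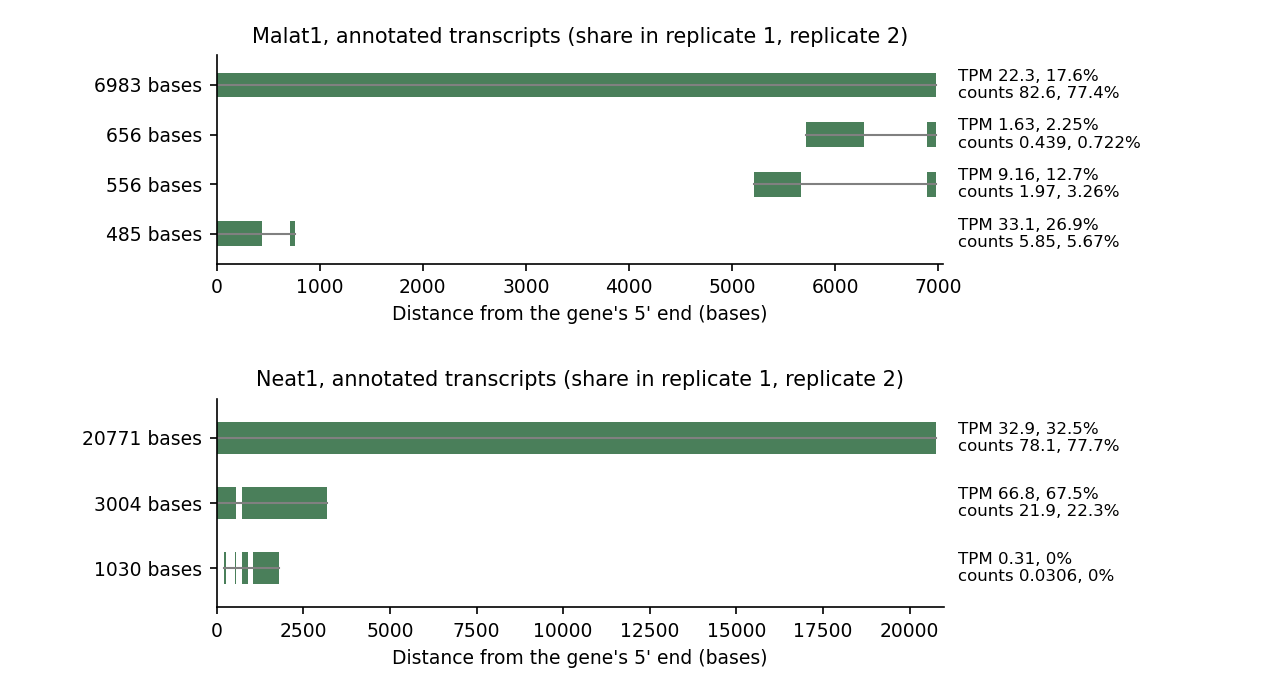
Exons (boxes) of Malat1 and Neat1 transcripts that M21 holds and the authors quantified, drawn by distance in bases from each gene's 5′ end. Beside each transcript are its shares of the gene's TPM and of its expected counts in replicate 1 and replicate 2. The full-length RNAs hold most counts (82.6% and 77.4% for Malat1, 78.1% and 77.7% for Neat1) and the smaller part of TPM. Not drawn are ENSMUST00000173523 of Malat1, which M21 lacks, and the M21 transcript ENSMUST00000232969 of Neat1, which was not quantified.

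Counts were given to both forms of Neat1, in nearly the same proportion in both libraries. The short form ENSMUST00000174287 (chromosome 19, 5842307 to 5845476) had 21.6 TPM in replicate 1 and 21.9 in replicate 2, or 66.8% and 67.5% of the gene's TPM. The long form ENSMUST00000173672, 20771 bases without an intron, stood at 10.7 and 10.5 TPM, 32.9% and 32.5%. By counts the order was the other way, with 6451 and 5684 counts on the long form (78.1% and 77.7%) and 1807 and 1633 on the short form. The third transcript, ENSMUST00000174829, had 3 counts in replicate 1 and 0 in replicate 2.

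The largest difference in any Neat1 share between the libraries was 0.7 percentage points of TPM, and it was 6.7 for Malat1. The short form lies wholly within the first 3172 bases of the long form, so reads there were divided between the forms by estimation. Whether the short form exists as an RNA of its own in these cells was not tested. Among the 3 deposited transcripts, only the long form covers the bases beyond that point. Over its whole length it carried 313 and 276 counts per kilobase of effective length, and the short form carried 636 and 574.

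Sfpq transcripts divided between the coding message and partial non-coding ones. The coding transcript ENSMUST00000030623, 3465 bases, led with 55.0% of TPM in replicate 1 and 45.5% in replicate 2, on 85.1% and 79.4% of counts. Its own TPM was 101 and 106, closer between the libraries than the gene's 184 and 232. ENSMUST00000146285, whose 10 exons reach base 15690 of the gene where the coding transcript ends at base 9913, held 23.4% and 22.4% of TPM. ENSMUST00000143168 held 11.1% and 19.9%, which is 20.5 and 46.1 TPM. ENSMUST00000125453 held 5.89% and 6.25%, and ENSMUST00000144630 4.43% and 5.76%. The 5 transcripts annotated as processed, without a coding sequence, together held 45.0% and 54.4% of TPM but 14.9% and 20.6% of counts.

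Nono was mostly its coding transcript. ENSMUST00000033673, 2562 bases, held 79.2% of TPM in replicate 1 and 86.0% in replicate 2, on 92.3% and 94.0% of counts. The 4 transcripts annotated with a retained intron held 20.8% and 14.0% of TPM. Of these, ENSMUST00000134783 was highest in replicate 1, with 7.27% against 3.77% in replicate 2, where ENSMUST00000136251 was highest with 5.11%. A second coding transcript and a processed one had 0 counts in both libraries.

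Pspc1 had the largest difference of a share between the libraries among the 6 genes. Its main coding transcript ENSMUST00000022507 held 73.0% of TPM in replicate 1 and 63.4% in replicate 2. The other coding transcript, ENSMUST00000163924, which ends at base 54331 of the gene where the main one ends at base 57607, held 10.4% and 22.8%, from 194 and 409 counts, a difference of 12.5 percentage points. A retained-intron transcript, ENSMUST00000168524, held 15.4% and 9.10% on 39 and 22 counts. Rbm14 was divided between coding transcripts in a steadier way, ENSMUST00000006625 at 60.4% and 64.0% of TPM and ENSMUST00000113793 at 39.6% and 36.0%. The third Rbm14 transcript had 0 counts.

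**Figure D3:**
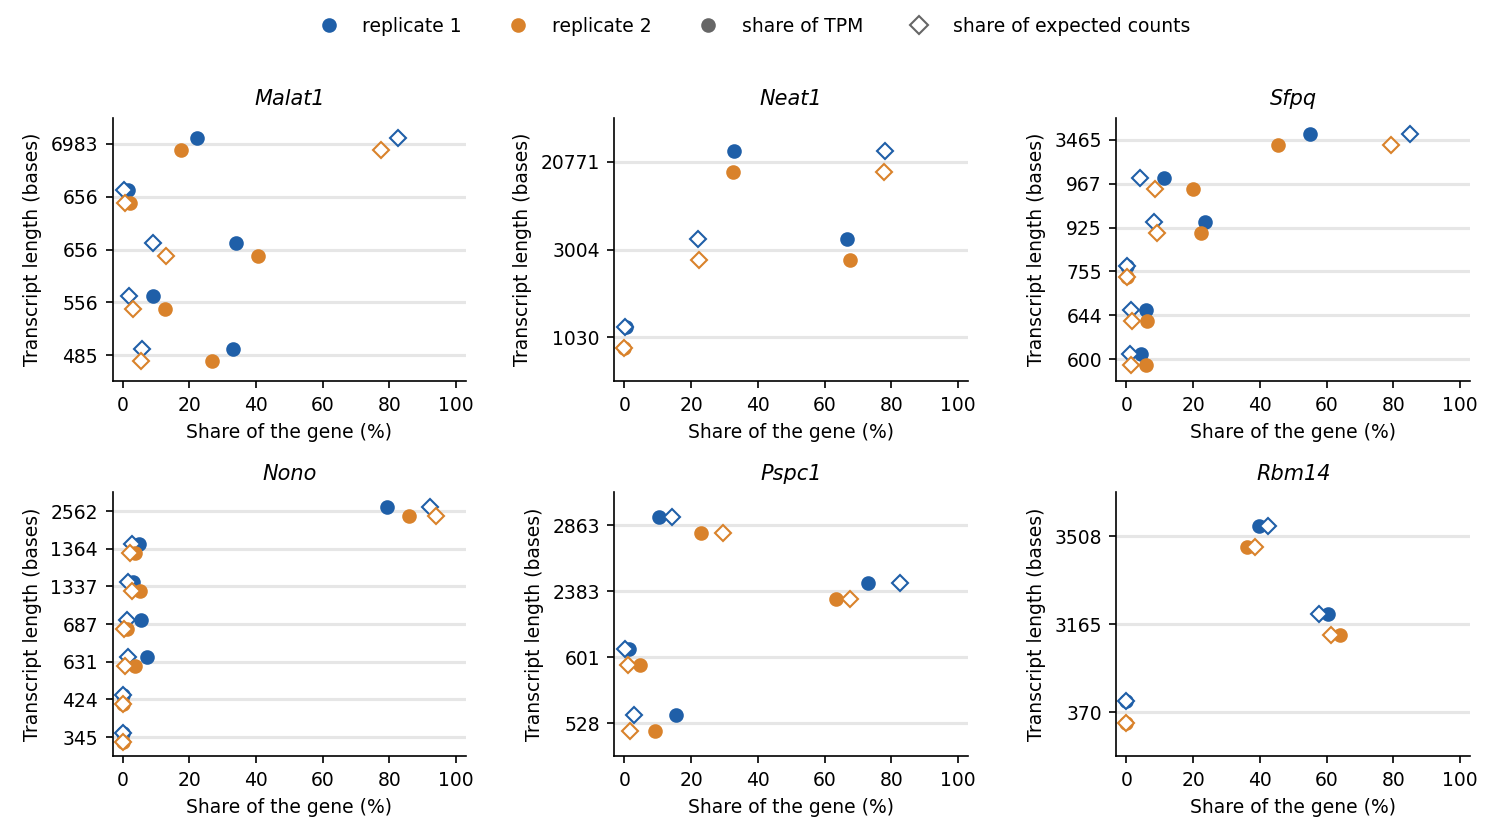
Share of each gene's TPM (filled circles) and of its expected counts (open diamonds) on each annotated transcript, in replicate 1 (blue) and replicate 2 (orange), with transcripts ordered by length in bases. For Malat1, Neat1 and Sfpq the longest transcript holds far more of the counts than of the TPM, and of the 2 Malat1 transcripts of 656 bases the lower row is ENSMUST00000173523.

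Across all genes with 2 or more transcripts and a mean of 10 TPM or more, the transcript leading by TPM was not the one leading by counts in 15.3% of 4837. Among the 6 genes this held for 2, Malat1 and Neat1. The leading transcript by TPM differed between the libraries in 26.9% of the 4837 and in 0 of the 6 genes. A share moved by over 10 percentage points in 68.5% of the 4837 and in 1 of the 6, Pspc1. The longest transcript held under 50% of TPM in both libraries for 61.0% of the 4837 and for 4 of the 6, Malat1, Neat1, Pspc1 and Rbm14. These are counts beside a background, with no test.

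Between the libraries, all 6 genes lay within 2-fold. Past 2-fold were 4.52% of 6445 genes of 10 TPM or more on average, so a count of 0 among 6 is near what that background gives. The share was 3.13% for protein-coding genes and 13.2% for long non-coding RNA genes at that level, 10.5% for genes of 1 TPM or more and 10.1% for all genes with a count. The log2 ratio of replicate 2 to replicate 1, on log2(TPM + 1), was 0.09 for Malat1, 0.00 for Neat1, 0.33 for Sfpq, -0.16 for Nono, 0.10 for Pspc1 and 0.22 for Rbm14. Their median absolute ratio was 0.13, against 0.24 over the background genes of 10 TPM or more, which were not matched to them in level. On this scale Sfpq was the one of the 6 furthest apart. With counts scaled by edgeR's TMM factors Malat1 was furthest apart, at -0.22, with Neat1 at -0.08 and Sfpq at 0.09. Which of the 6 differed most, and the direction of Malat1 and Neat1, were therefore not fixed by these data. The median of all genes moved only from 0.03 to -0.02 with that scaling. edgeR's biological coefficient of variation lay between 0.127 for Neat1 and Nono and 0.164 for Pspc1, and for each of the 6 genes it equalled the trend at its level, so it carries no spread of the gene's own. The fit had 1 residual degree of freedom. No gene was tested.

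**Figure D4:**
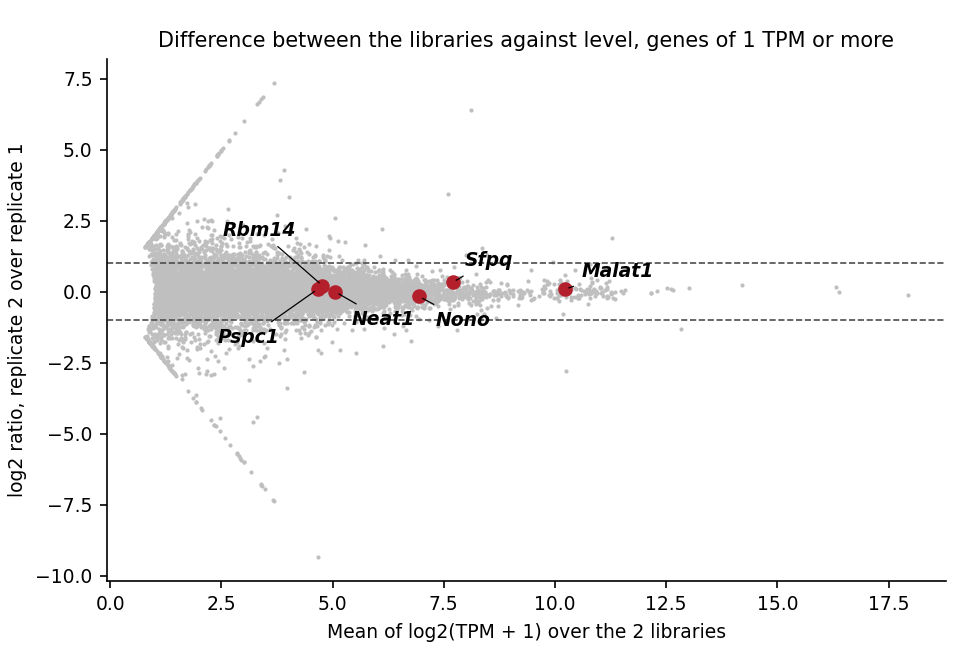
Log2 ratio of replicate 2 over replicate 1 against the mean of log2(TPM + 1) for all genes of 1 TPM or more on average (grey), with the 6 genes in red and 2-fold marked by dashed lines. All 6 lie between the lines, from -0.16 for Nono to 0.33 for Sfpq.

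Small annotated RNAs and overlapping genes sit at these loci, and reads cannot always be assigned to one of them. Malat1 and Neat1 are 22035 bases apart on the same strand, with the small RNA Gm27702 between them. Gm27702 (chromosome 19, 5824652 to 5824707) begins at the base after the printed 3′ end of long Neat1. It had an effective length of 0 in both libraries, so no reads could be assigned to it. Within Neat1, the row Gm27505 had 0 counts in replicate 1 and 20.1 in replicate 2, listed as 162 TPM there because its effective length was 4.73 bases. Gm27533, also within Neat1, had 8.4 and 10.3 counts. On the strand opposite to Malat1, Gm37376 had 18.0 and 0.0 counts, against the 62441 and 50066 of Malat1.

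Sfpq overlaps Gm12940, a non-coding gene on the same strand, which was at 36.0 and 64.0 TPM from 366.5 and 522.8 counts. Rbm14 overlaps the readthrough gene Gm21992 at 7.79 and 6.62 TPM, and Gm21844 on the opposite strand had 0.0 counts in both. Values of Sfpq and Rbm14 are uncertain where reads are shared with these genes, and the size of that uncertainty was not tested. Beside Neat1, the protein-coding gene Frmd8 was at 8.54 and 12.2 TPM.

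Other known proteins of paraspeckles were expressed throughout, as 25 of 25 reached 1 TPM in each library, against 45.6% of protein-coding genes. Their median of mean TPM was 65.4, between Nono and Neat1, and the median of all protein-coding genes was 0.550. The highest were Rbm3, a cold-induced RNA-binding protein, at 430 ± 14.7 TPM (SD, n = 2), Hnrnpk at 375 ± 12.4 TPM, Hnrnph1 at 350 ± 60.9 TPM and Hnrnpf at 332 ± 3.07 TPM. The lowest was Rbm4b at 4.64 ± 0.940 TPM.

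The factors known to steer Neat1 between its forms were among them, and are named here after their values were seen. HNRNPK is known to favour the long form, and Hnrnpk stood at 383 and 366 TPM in replicates 1 and 2. NUDT21 and CPSF6 act in 3′ end processing of the short form, and Nudt21 was at 22.6 and 24.9 TPM and Cpsf6 at 44.9 and 66.5 TPM. Tardbp, whose product TDP-43 also favours the short form, was at 196 and 223 TPM. Of the 24 members of this list at 10 TPM or more on average, 1 was past 2-fold, Cirbp at 12.1 and 34.0 TPM, a share near the 3.13% of protein-coding genes at that level.

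Nuclear speckle proteins, which share their compartment with Malat1, reached 1 TPM in each library in 14 of 14 cases, beside 45.6% of protein-coding genes, with a median of 117 TPM. Srsf2 led at 395 ± 4.64 TPM (SD, n = 2), then came the SR protein gene Srsf3 at 320 ± 14.3 TPM, the speckle scaffold gene Srrm2 at 262 ± 7.76 TPM and Srsf5 at 161 ± 16.7 TPM. The lowest was Pnn at 43.2 ± 2.41 TPM. Of these 14, 0 were past 2-fold between the libraries, which is near the background of 3.13% of protein-coding genes.

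RNase P, which cuts Malat1 and long Neat1 after the printed A-rich tract, and RNase Z, which trims the released RNA, had 11 of 12 genes that reached 1 TPM in each library, beside 45.6% of protein-coding genes. Rpph1, the RNA of RNase P, had 1302 TPM in replicate 1 and 4811 in replicate 2, the only one of the 10 genes of 10 TPM or more in this list that was past 2-fold, beside 4.52% of all genes at that level. Its protein partners were lower, led by Pop5 at 48.4 ± 5.17 TPM, Rpp21 at 27.8 ± 2.06 TPM and Pop4 at 18.9 ± 3.32 TPM. Elac2, the RNase Z gene, was at 12.7 ± 1.92 TPM. Rpp25 was the lowest, with 0 and 5 counts.

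Among 14 other well-known long non-coding RNAs with a row, 6 reached 1 TPM in each library, against 4.92% of long non-coding RNA genes. Gas5, a snoRNA host, was at 907 ± 117 TPM (SD, n = 2), Snhg12 at 84.0 ± 13.9 TPM, Tug1 at 46.3 ± 7.52 TPM and Dleu2 at 27.4 ± 3.83 TPM. By mean TPM, Malat1 lay above all of these and Neat1 between Tug1 and Dleu2. Xist, Meg3, Miat and Rian, 4 of the 14, had 0 counts throughout, beside 4724 of 5694 long non-coding RNA genes. At these depths 0 counts leave room for up to 0.0741 CPM in the first library and 0.0841 CPM in the other, where CPM is a count taken per library total without length.

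**Figure D5:**
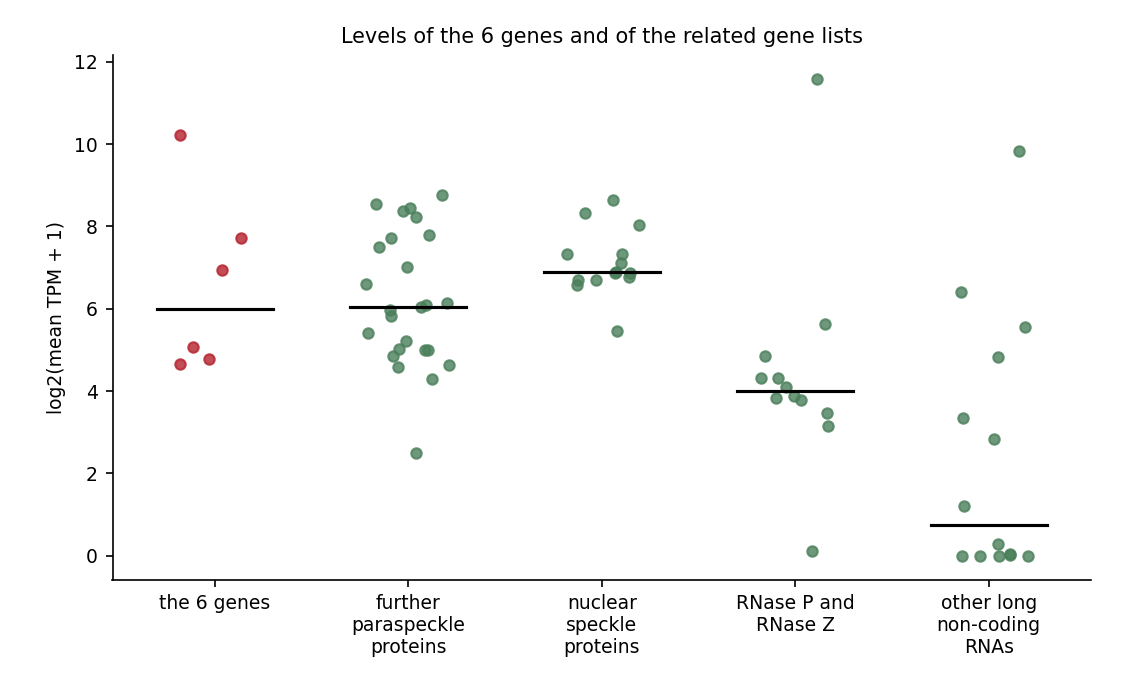
Levels as log2(mean TPM + 1) of the 6 genes (red) and of the members of the related lists (green), with a black bar at each list's median and points spread sideways for visibility. Malat1 is the highest of the 6 at 1192 TPM, the paraspeckle and speckle proteins listed lie above 1 TPM, and the other long non-coding RNAs reach from 0 to 907 TPM.

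The genes nearest to each of the 6 in level over the 2 libraries, by distance on log2(TPM + 1) among 6163 genes, were as follows. Nearest to Malat1 were the ribosomal protein genes Rpl3, Rpl31 and Rps10, at distances of 0.044 to 0.047. Nearest to Neat1 were Hibadh, Wdr12 and Aifm1, at 0.013 to 0.020. Sfpq lay nearest Alas1, Tma7 and Emb, at 0.067 to 0.091, and Nono nearest Rgs19, Scp2 and the speckle protein gene Srrm1, at 0.046 to 0.068. Near Pspc1 lay Eif2b1 and Pum3, at 0.015 and 0.022. Rbm14 lay nearest Ptcd2, Pitpnb and Lyn, at 0.006 to 0.014. With 2 libraries this likeness is one of level and carries no further pattern.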

How the data were processed

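The authors deposited a gene and a transcript table for each library, from transcriptome alignments to mm10, quantified on annotation M4, as the accompanying text files state. Which aligner and quantification tool were used, and whether strand was, is not given in the sources used here. The deposited expected counts are estimated reads, the deposited TPM values are scaled to the same total over all rows, spike-ins included, and the deposited FPKM values were used as an alternative. The percent values the authors deposited give each transcript's share of its gene's TPM, and the deposited lengths are in bases.

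Symbols, positions and transcript types came from GENCODE M21 on GRCm38 (the assembly of mm10, later than M4), and 42462 rows matched. The members and lists were chosen with earlier results of these data known. Expected counts were rounded to whole numbers, genes under 10 counts in every library were left out, and spread was estimated by edgeR 4.0.16 (R 4.3.3, TMM, intercept-only design), with DESeq2 1.42.0 as the alternative. The remaining work was done in Python 3.11.15, numpy 2.4.6, pandas 2.3.3, scipy 1.17.1 and matplotlib 3.10.9. The edgeR step was also run on simulated data with a larger spread than that of the 6 genes, so that run does not check their values. Ratios are of log2(TPM + 1), which understates those of low genes. A count of 0 allows up to 3 counts. Named were all 6 genes, their transcripts of 5% or more of TPM on average, the 4 highest and the lowest of each list with all at 0 counts, the 3 nearest genes and the neighbours, with exceptions stated; a few genes under this rule are not reported here. Snhg1 had no matching row.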

Additional observations from a re-analysis of the deposited data

How the results depend on the processing

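The full-length share of Malat1 was 19.9% of TPM and 80.0% of expected counts, and the long-form share of Neat1 was 32.7% of TPM and 77.9% of counts, because TPM divides by length. Without either replicate the TPM shares ranged from 17.6% to 22.3% and from 32.5% to 32.9%. The median coefficient of variation of the 6 genes was 0.134 with edgeR and 0.0917 with DESeq2 (the square root of its dispersion), and the cause was not tested. All 6 genes stayed within 2-fold with pseudocount 0.1, TMM factors, DESeq2 size factors and TPM rescaled without Lars2 and the ribosomal RNA-related rows, and the share of the background past 2-fold ranged from 2.03% to 5.10% over these and the main setting. TPM was 0.563 to 0.565 of the level after that rescaling for each gene. Counts of list members at 1 TPM or more stayed within 1.5 times under a minimum of 10 TPM and without either replicate. No paired analysis was possible because there is a single group. Depth limits the minor transcripts of Pspc1 and the small RNA rows, which rest on few counts.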
